A study of Mus musculus with 18 samples.

Results

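The comparison described here is that of ribosome footprints in astrocytes kept for 48 h with inflammatory cytokines against footprints in untreated astrocytes. All 12205 genes of the study's table were included, and none was chosen by its value. Both groups were primary astrocytes of newborn wild-type C57BL mice, both sexes pooled, so each library stands for cultures from several animals. The 48 h cytokine group was cultured for 72 h and then given TNFα at 20 ng/ml together with IL-1β at 0.25 ng/ml for 48 h; the untreated group was cultured for 120 h without cytokine. Each group held 3 footprint libraries, from batches A, B and C, out of 18 libraries in the series. RNA libraries of the same cultures, and cells treated for 24 h after 96 h of culture, are cited only beside the 48 h footprint values. A primary culture holds the cells that survive plating and can retain other brain cells, which bears on it as a model of astrocytes.

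Ribosome profiling reads the stretches of mRNA that ribosomes cover at the moment of lysis. RNase I digests exposed RNA, and the protected fragments, here 26 to 34 nt long, are sequenced and counted per gene, so a footprint value joins how much mRNA a gene has with how densely ribosomes occupy it. TNFα and IL-1β both signal to NF-kB, a family of dimeric transcription factors held in the cytoplasm by IkB proteins until these are degraded. Their known targets in astrocytes include chemokines, acute phase proteins and the IkB genes themselves. Signalling through IRF and STAT factors drives interferon-stimulated genes.

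The authors' deposited table gives 1 log2 value per gene for the 48 h cytokine group over the untreated group, and no value per library. Neither library depth nor the variation from batch to batch is therefore known, and no difference below was tested. A gene is called higher at a log2 value of at least 1, a 2-fold difference, and lower at a log2 value of at most -1. In a bulk culture, fewer cells of a type and less RNA per cell cannot be told apart. The sources used here do not say how genes entered the table. If a gene silent in untreated cells entered only when induced, it had to be high, so counts and medians of lists cover the measured members and describe them only.

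The footprints of most genes differed little, and the largest differences were increases. Values had quartiles of -0.32 and 0.34 around a median of 0.01. Of 12205 genes, 992 (8.13%) were called higher and 1063 (8.71%) lower. At this fold the directions were nearly even, with 48.3% of the 2055 called genes higher. Among the 357 genes past a log2 value of 3 in either direction, 254 were higher and 103 lower. Past 5 there were 100 higher and 12 lower, and all 27 genes past 7 were higher.

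**Figure D1:**
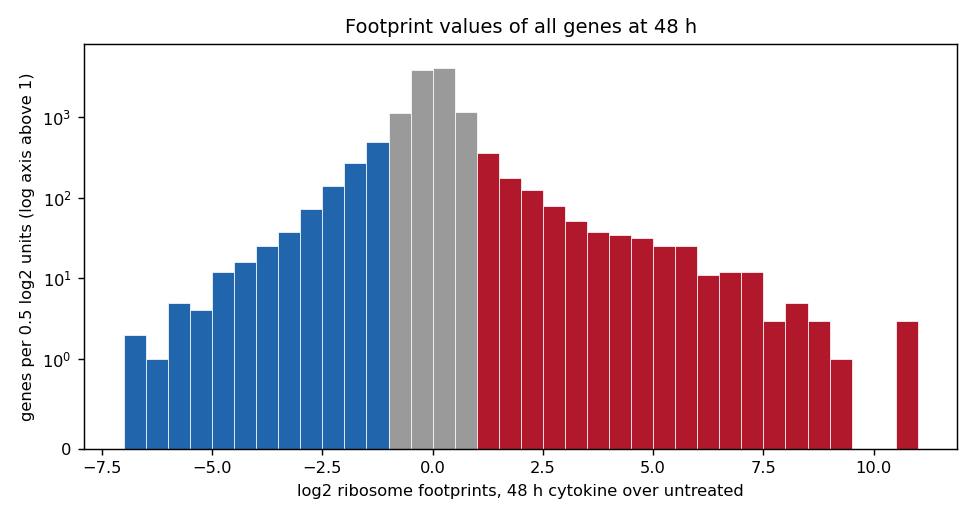
Number of genes (vertical axis, log scale above 1) in bins of 0.5 of the log2 footprint value of 48 h cytokine cells over untreated cells (horizontal axis). Red bins are called higher, blue bins lower; the right tail reaches 10.71 and the left tail -6.59.

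The 15 highest values ranged between 7.56 and 10.71. The authors' deposited table puts Nlrp3, the sensor of an inflammasome, at 10.71, Vnn3, a pantetheinase family gene, at 10.64 and the neutrophil chemokine gene Cxcl2 at 10.56. These 3 genes stand clear of the next value, 9.34 for the long noncoding RNA gene Gm14275 in the authors' deposited table. Below it the authors' deposited table lists the acute phase gene Saa3 at 8.88, the cytokine gene Il19 at 8.60, the fatty alcohol synthesis gene Far2 at 8.56 and Fyb, an adaptor known from T cells, at 8.49. Nos2, the inducible nitric oxide synthase, stood at 8.47 and Madcam1, a ligand of leukocyte integrins, at 8.34 in the authors' deposited table. The remaining 5, in the authors' deposited table, were Cxcl5 (8.18), Saa2 (8.01), the itaconate-synthesis gene Acod1 (8.00), the ubiquitin-like Ubd (7.75) and the protease inhibitor Serpinb2 (7.56).

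The 15 lowest values ranged between -6.59 and -4.76. The authors' deposited table has the collagen genes Col8a2 at -6.59, Col4a4 at -6.57 and Col4a3 at -5.58. On GRCm38.p6, Col4a3 spans chromosome 1 from 82586921 to 82722059 and Col4a4 spans 82448419 to 82587034, so their annotated spans overlap. Both code for chains of basement membrane collagen. The authors' deposited table also has low values for Oca2, a melanosome membrane protein (-6.15), 3110035E14Rik (-5.71), Nppc, the C-type natriuretic peptide (-5.67), and Tll2, a tolloid-like protease (-5.59). Sncb, which codes for beta-synuclein, was at -5.55 and Lect1, known as a chondrocyte-derived factor, at -5.33 in the authors' deposited table. The list of 15 closes, in the authors' deposited table, with Adamts18 (-5.11), the ligand Wnt2b (-5.11), the semaphorin Sema5b (-5.01), the secreted Scube2 (-4.96), the cartilage matrix gene Matn3 (-4.81) and the thyroid hormone transporter Slco1c1 (-4.76).

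NF-kB subunits and the inhibitors that limit them had higher medians than the receptors and adaptors upstream. Of 25 measured receptors and adaptors of TNF and IL-1, 8 were higher and 1 was lower, with a median of 0.42. The authors' deposited table has the negative regulator Irak3 at 4.29, the kinase Map3k8 and the receptor Tnfrsf1b at 2.33 each, the adaptor Myd88 at 2.10, the IL-1 receptor accessory chain Il1rap at 1.31 and the IL-1 receptor Il1r1 at 1.28. Traf1, an adaptor gene, went the other way at -2.27 in the authors' deposited table. Of the 5 NF-kB subunits, 4 were higher: Relb (3.23), Nfkb2 (2.32), Nfkb1 (2.09) and Rel (1.18), beside 0.55 for Rela, in the authors' deposited table. Inhibitors that limit NF-kB had 11 of 15 measured members higher and none lower, with a median of 2.91. They include Tnip3 (6.30), the ubiquitin-editing Tnfaip3 (4.56), the IkB family genes Nfkbiz (4.47), Nfkbie (4.01) and Nfkbia (2.91), and the ribonuclease Zc3h12a (2.99) in the authors' deposited table. The deubiquitinase Cyld stood at 0.36 in the authors' deposited table.

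Of the lists described here, the chemokines had the highest footprint medians. Of 11 measured genes listed as CXC chemokines 10 were higher (median 5.58), and of 8 CC chemokines 6 (median 5.57). The CXC list, here and in the motif counts, also holds Cx3cl1, a chemokine of the CX3C class. Besides Cxcl2 and Cxcl5, the authors' deposited table has the neutrophil chemokine Cxcl1 at 7.36 and the membrane-bound Cxcl16 at 5.58. The CXCR3 ligand genes Cxcl11 (5.88), Cxcl10 (5.85) and Cxcl9 (1.82) were also higher in the authors' deposited table. RefSeq annotates Cxcl11 as a transcribed pseudogene, so its footprints need not stand for a functional ligand. Among CC chemokines it was the monocyte attractants Ccl2 (7.39) and Ccl7 (7.11) that were highest in the authors' deposited table, followed by Ccl5 (6.64), Ccl20 (5.82), Ccl9 (5.33) and Ccl17 (3.77). Cxcl14 (0.38), Ccl27a (-0.05) and Ccl6 (-0.07) did not pass the fold in the authors' deposited table. Interleukins, colony-stimulating factors and TNF family ligands had 8 of 15 measured members higher (39 were listed), among them Tnfsf11 (6.67), Csf3 (6.57), Il6 (5.00) and Lif (2.26) in the authors' deposited table. The authors' own set of 74 cytokine activity genes had 32 members higher and 6 lower, and a median of 0.45. Its p-value in the authors' deposited table is 3e-10; which test gave it is not stated in the sources used here.

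Acute phase genes were mostly higher, and complement genes in part. Of 13 measured acute phase genes 11 were higher (median 4.24), with the iron-scavenging lipocalin Lcn2 at 7.40, haptoglobin Hp at 6.45, the metalloreductase Steap4 at 6.08 and hemopexin Hpx at 5.27 in the authors' deposited table. Itih3 was at -2.39 in the authors' deposited table. All 7 measured Serpina3 protease inhibitors were higher, with a median of 4.56, and ran between 2.38 for Serpina3n and 7.20 for Serpina3f in the authors' deposited table. These paralogs are alike in sequence, so their reads may be shared and single values are uncertain. Serpina3h among them is annotated by RefSeq as a transcribed pseudogene. Serpina3e-ps, annotated as a pseudogene, was measured but is not in this list, and it was not called in either direction. Complement divided: 8 of 17 measured genes were higher and 2 lower. Factor B, Cfb, stood at 7.0, C3 at 6.02, and the C1 proteases C1rb at 5.21, C1ra at 4.47 and C1s1 at 3.88 in the authors' deposited table, while the complement inhibitor Cd59a was at -1.83 and vitronectin, Vtn, at -4.38 in the authors' deposited table.

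Interferon-stimulated families were higher with few exceptions. Across guanylate-binding proteins, immunity-related GTPases, antiviral effectors and PYHIN genes, 66 of 73 measured genes were higher and none lower, with a median of 2.83. All 9 guanylate-binding proteins, GTPases that attack vacuoles of pathogens, were higher, and the 3 highest in the authors' deposited table were Gbp4 (6.90), Gbp10 (6.71) and Gbp5 (5.98). All 7 PYHIN genes, which include DNA sensors, were higher, between 3.36 for Mndal and 5.84 for Ifi205 in the authors' deposited table. Of 10 immunity-related GTPases 9 were higher, led by Gm12185 (5.84), Iigp1 (5.60) and Ifi47 (4.78) in the authors' deposited table. Antiviral effectors had 41 of 47 measured members higher, with the Schlafen genes Slfn2 (6.39) and Slfn5 (5.14), the nucleic acid sensor Zbp1 (5.60) and the oligoadenylate synthetase Oas1a (4.18) at the top in the authors' deposited table. Mx1 (0.74), Ifit2 (0.19) and Cmpk2 (-0.31) did not pass in the authors' deposited table. RefSeq annotates Mx1 as a transcribed pseudogene. The members of the Gbp, H2 and PYHIN families have close copies, and the division of reads between them is uncertain.

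Most measured genes of MHC class I presentation were higher. Of 18 such genes 13 were higher (median 1.97). The authors' deposited table has H2-Q6 at 6.37, H2-K1 at 3.83, H2-D1 at 3.69 and the light chain B2m at 2.28, while the general chaperones Calr (0.06) and Canx (0.25) lay near 0 in the authors' deposited table. Immunoproteasome subunits and activators had 5 of 6 higher, with Psmb9 at 2.94, Psmb8 at 2.93 and Psmb10 at 2.48 in the authors' deposited table. Of the 36 genes of the constitutive proteasome 3 were higher and none lower, with a median of 0.41. The higher share, 8.33%, was near the 8.13% over all genes. Among pattern recognition genes 12 of 17 were higher, including Tlr2 (5.75), Nod2 (4.22), Cd14 (3.77) and the class I regulator Nlrc5 (3.53) in the authors' deposited table. Inflammatory caspases were also higher, Casp4 at 4.66 and Casp1 at 2.05, with the pore-forming Gsdmd at 2.47 in the authors' deposited table.

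**Figure D2:**
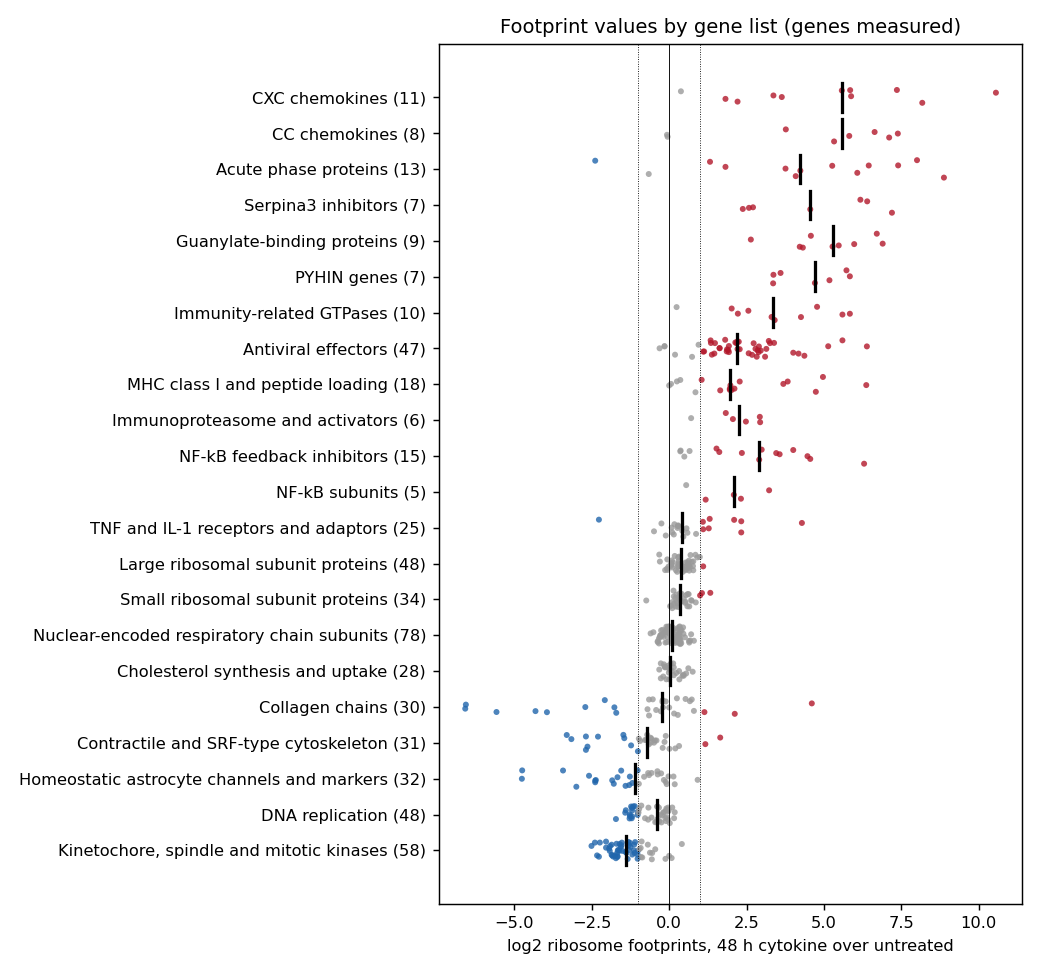
Log2 footprint values of 48 h cytokine cells over untreated cells (horizontal axis) for the measured members of 22 gene lists, with the number of genes after each name. Points are genes, red higher, blue lower and grey between the dotted lines at -1 and 1; black bars are medians, which run between 5.58 for CXC chemokines and -1.40 for mitotic genes.

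Genes of known NF-kB and interferon target families carry recognition motifs in their promoters, and the windows below show where these letters lie in members described above and, for comparison, in genes of mitosis and the contractile cytoskeleton. The 9 genes shown were picked because their windows hold matches. Each window is the 250 bases before an annotated transcription start, from RefSeq on GRCm38.p6. For Top2a, Vcl and Myl9 that start lies within the annotated span of the gene, so their windows overlap it. In Cxcl2, at chr5:90903649-90903898 (plus strand), and Nfkbia, at chr12:55492648-55492897 (minus strand), capitals mark a spelled kB motif, GGGNNTTTCC on either strand. Cxcl2 has 2 matches, the nearer ending 69 bases before the start, and Nfkbia has 1.

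Cxcl2: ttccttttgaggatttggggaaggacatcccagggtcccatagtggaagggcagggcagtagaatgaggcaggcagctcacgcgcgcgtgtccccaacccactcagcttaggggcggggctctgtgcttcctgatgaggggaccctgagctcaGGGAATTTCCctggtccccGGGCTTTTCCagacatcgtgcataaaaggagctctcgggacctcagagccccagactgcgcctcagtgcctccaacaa
Nfkbia: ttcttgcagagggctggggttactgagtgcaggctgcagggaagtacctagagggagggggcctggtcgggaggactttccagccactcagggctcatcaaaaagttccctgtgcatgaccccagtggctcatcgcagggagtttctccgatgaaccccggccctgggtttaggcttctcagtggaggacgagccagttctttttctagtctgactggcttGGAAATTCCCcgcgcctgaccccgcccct

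Ifit1, at chr19:34640639-34640888 (plus strand), and Isg15, at chr4:156200819-156201068 (minus strand), carry GAAANNGAAA, the core of the interferon-stimulated response element, in capitals on either strand. Of the 3 matches of Isg15, each overlaps its neighbour. Gbp5, at chr3:142496684-142496933 (plus strand), has 1 match to that motif and, nearer the start, 1 to the kB motif.

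Ifit1: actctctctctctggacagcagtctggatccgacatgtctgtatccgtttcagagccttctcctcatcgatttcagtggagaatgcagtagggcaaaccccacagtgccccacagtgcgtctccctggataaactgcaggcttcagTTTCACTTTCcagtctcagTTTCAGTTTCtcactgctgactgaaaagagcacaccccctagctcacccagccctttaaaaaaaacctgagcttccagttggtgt
Isg15: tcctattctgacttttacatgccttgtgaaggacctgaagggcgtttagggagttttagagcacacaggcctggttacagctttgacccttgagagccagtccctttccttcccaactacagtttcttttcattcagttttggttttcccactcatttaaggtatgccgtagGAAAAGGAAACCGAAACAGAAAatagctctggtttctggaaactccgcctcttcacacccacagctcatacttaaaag
Gbp5: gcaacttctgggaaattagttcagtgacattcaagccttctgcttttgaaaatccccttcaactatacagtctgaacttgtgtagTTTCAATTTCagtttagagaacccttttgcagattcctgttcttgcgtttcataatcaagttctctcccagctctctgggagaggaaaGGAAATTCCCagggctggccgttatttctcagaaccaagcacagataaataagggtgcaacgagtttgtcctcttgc

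In Cdk1, at chr10:69352913-69353162 (minus strand), and Top2a, at chr11:99024190-99024439 (minus strand), capitals mark CCAAT boxes and TTTGAA, the core of the cell cycle homology region known from G2 and mitotic promoters, on either strand. In Vcl, at chr14:20929148-20929397 (plus strand), and Myl9, at chr2:156775214-156775463 (plus strand), they mark the CArG box, the site bound by serum response factor.

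Cdk1: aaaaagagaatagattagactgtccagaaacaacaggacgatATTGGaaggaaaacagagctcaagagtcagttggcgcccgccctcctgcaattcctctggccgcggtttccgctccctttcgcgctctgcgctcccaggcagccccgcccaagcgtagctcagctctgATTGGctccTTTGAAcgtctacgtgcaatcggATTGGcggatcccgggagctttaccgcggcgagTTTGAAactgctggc
Top2a: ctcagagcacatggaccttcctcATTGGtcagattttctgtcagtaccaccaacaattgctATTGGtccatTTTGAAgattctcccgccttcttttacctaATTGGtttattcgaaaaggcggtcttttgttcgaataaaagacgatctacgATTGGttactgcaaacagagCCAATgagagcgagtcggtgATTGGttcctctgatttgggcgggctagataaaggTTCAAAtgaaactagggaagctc
Vcl: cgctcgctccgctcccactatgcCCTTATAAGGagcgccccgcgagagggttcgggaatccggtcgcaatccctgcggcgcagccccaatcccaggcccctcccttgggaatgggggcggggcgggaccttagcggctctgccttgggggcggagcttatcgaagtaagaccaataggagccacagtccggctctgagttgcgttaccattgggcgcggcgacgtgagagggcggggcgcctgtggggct
Myl9: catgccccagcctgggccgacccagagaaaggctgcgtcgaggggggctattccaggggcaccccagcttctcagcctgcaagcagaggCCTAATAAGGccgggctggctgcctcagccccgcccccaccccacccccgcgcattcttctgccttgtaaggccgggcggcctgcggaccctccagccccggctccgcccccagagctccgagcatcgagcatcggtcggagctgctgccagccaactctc

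Footprint values of these genes in the authors' deposited table are 10.56 for Cxcl2, 2.91 for Nfkbia, 3.26 for Ifit1, 2.96 for Isg15, 5.98 for Gbp5, -1.02 for Cdk1, -1.64 for Top2a, -1.45 for Vcl and -2.69 for Myl9. In all, 9 motifs were searched, each on both strands except TATAAA, and all 9 were chosen after values were seen. The windows of measured genes numbered 12374, for 9613 genes, and 206 of them belonged to genes at a log2 value of 3 or more. The spelled kB motif was in 9.71% of those 206 windows and in 1.45% of all windows, and the degenerate NF-kB consensus, whose matches partly overlap those of the spelled motif, in 20.4% and 4.66%. GAAANNGAAA was in 13.1% against 2.63%. The STAT-type motif TTCNNNGAA was in 10.7% against 5.80%, and TATAAA in 10.7% against 3.77%. TTTGAA had shares of 14.1% and 10.3%, and CCAAT 33.5% and 35.3%. The CArG box was in 0.971% against 1.16%, and the E2F-type motif TTTCCCGC in 0 of 206 windows against 1.63%. In the 102 windows of genes at -3 or less, the NF-kB consensus was in 10.8% and TATAAA in 8.82%, so these were not confined to the upper end.

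By list, GAAANNGAAA was in 4 of 5 windows of guanylate-binding proteins, 5 of 7 of immunity-related GTPases and 20 of 42 of antiviral effectors, and in 0 of 16 windows of NF-kB inhibitors. The 5 windows of guanylate-binding proteins belong to 4 of the 9 measured genes, Gbp2, Gbp3, Gbp5 and Gbp7, and windows of the others were not analysed here. The same motif was in 2 of 8 windows of CXC chemokines and 3 of 17 of class I presentation genes. The spelled kB motif was in 3 of 16 windows of NF-kB inhibitors, 2 of 8 of CXC chemokines and 2 of 7 of CC chemokines, and in 0 of 42 of antiviral effectors. Windows covered 8 of 11 measured CXC chemokines, 5 of 8 CC chemokines, 7 of 10 immunity-related GTPases and 35 of 47 antiviral effectors. The shares therefore leave out some of the genes described above. CCAAT was in 34 of 51 windows of mitotic genes and in 15 of 17 of class I presentation genes. TTTGAA was in 16 of 51 mitotic windows, but also in 3 of 7 windows of immunity-related GTPases, 2 of 5 of guanylate-binding proteins and 11 of 42 of antiviral effectors. The CArG box was in 9 of 33 contractile windows and in 1 window each of the mitotic and replication lists. A match describes letters in these windows and says nothing about binding.

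**Figure D3:**
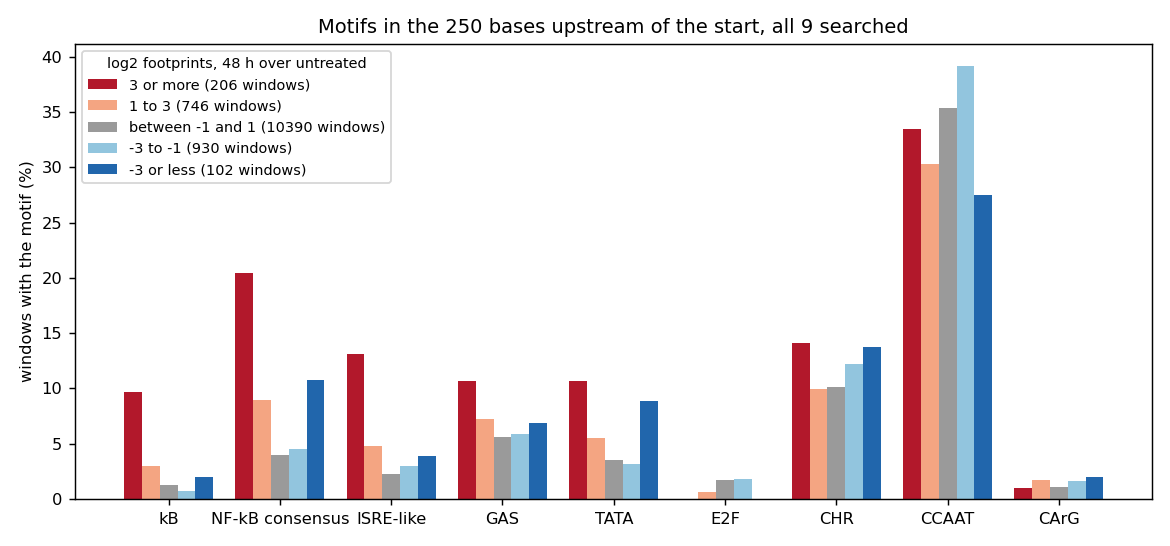
Share of promoter windows holding each of the 9 motifs searched (vertical axis, percent), by the log2 footprint value of the gene (colours, with the number of windows). The NF-kB consensus reached 20.4% in windows of genes at 3 or more; CCAAT was common in every class.

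Some called genes were neighbours on the chromosome. Among 12010 genes placed on GRCm38.p6, 17 runs of at least 4 consecutive measured genes were all called higher, 77 genes in total, and 3 runs with 13 genes were all called lower. The upward run with the most genes was the PYHIN cluster on chromosome 1 from 173630859 to 174031755, where 7 genes lay between 3.36 and 5.84. The run in the Serpina3 cluster on chromosome 12 (104214544 to 104414334) had 6 genes. Guanylate-binding proteins made up runs on chromosome 3 (142496934 to 142638008, 4 genes) and chromosome 5 (105012513 to 105295871, 5 genes). Chemokines formed runs on chromosome 5, where Cxcl5, Cxcl15, Cxcl1 and Cxcl2 lie within 147 kb and ranged between 2.21 and 10.56 in the authors' deposited table. A farther run there held Cxcl9, Art3, Cxcl10 and Cxcl11, in which the ectoenzyme-family gene Art3 was at 1.43 in the authors' deposited table. The annotated span of Art3 contains those of Cxcl10 and Cxcl11, and how far their reads bear on its value was not tested. On chromosome 17, Psmb9, Tap1, Psmb8 and Tap2, 2 immunoproteasome subunits and the 2 chains of the peptide transporter, alternate within 34.3 kb at values between 1.65 and 2.94 in the authors' deposited table. A run on chromosome 16 held the cytokine receptor genes Ifnar2 (1.73), Il10rb (1.58), Ifnar1 (1.06) and Ifngr2 (2.06) in the authors' deposited table. Many of these runs are families of close copies, and the part of reads shared between copies was not tested.

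**Figure D4:**
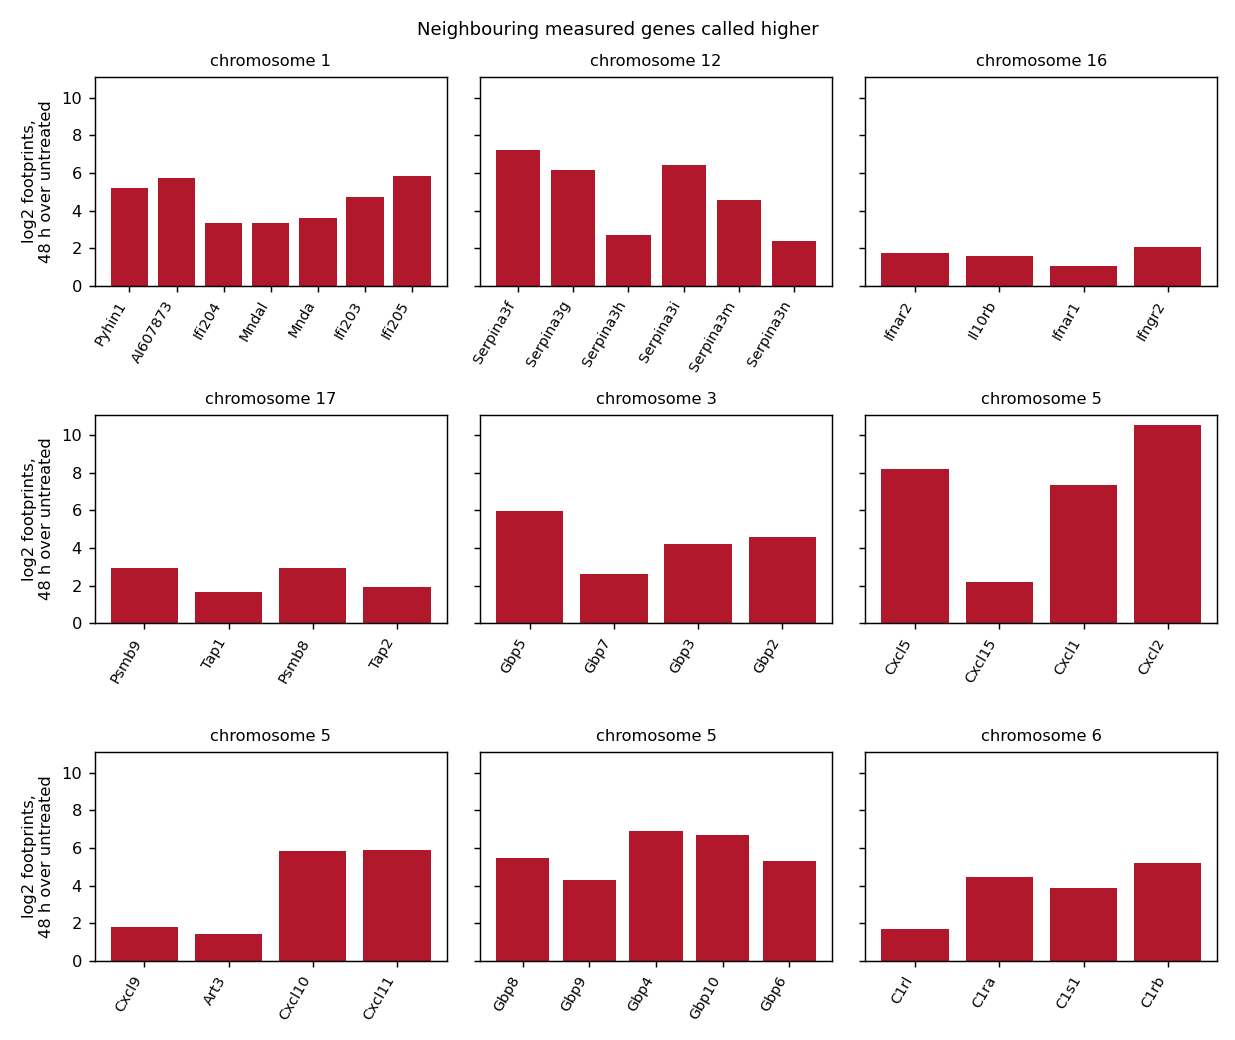
Log2 footprint values of 48 h cytokine cells over untreated cells (vertical axes) for genes in chromosome order in 9 of the 17 runs of neighbours called higher. Each panel is a run and each bar a gene; in the chemokine run Cxcl15 (2.21) stands between Cxcl5 (8.18) and Cxcl1 (7.36).

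Enzymes that make inflammatory mediators were higher in part, as were surface molecules that bind leukocytes. Of 16 genes for nitric oxide, itaconate, tetrahydrobiopterin and prostaglandin synthesis 9 were higher and 1 lower. Besides Nos2 and Acod1, the authors' deposited table has cyclooxygenase Ptgs2 at 4.79 and the prostaglandin E synthase Ptges at 2.72, with the prostaglandin D synthase Ptgds at -1.99. The count includes the cholesterol hydroxylase Ch25h, at 7.48 in the authors' deposited table, which was listed with these genes but belongs to none of the named pathways. Adhesion molecules had 7 of 14 higher, including P-selectin, Selp (5.08), Vcam1 (4.00) and Icam1 (3.10) in the authors' deposited table, beside 2 lower, Alcam (-1.37) and Jam2 (-2.55). Among 38 antioxidant and metal response genes 8 were higher, among them the cystine transporter Slc7a11 (4.65), mitochondrial superoxide dismutase Sod2 (3.14) and ferritin heavy chain Fth1 (2.24) in the authors' deposited table. Of 29 apoptosis and necroptosis genes 8 were higher and none lower, with Mlkl at 3.08, Bid at 2.54 and Ripk3 at 2.09 in the authors' deposited table. The authors' set of 67 apoptosis genes had 19 higher and 1 lower, and a p-value of 1e-09 in the authors' deposited table.

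Reactive and homeostatic astrocyte genes lay on opposite sides of 0, with exceptions in both. Of 37 measured reactive markers 23 were higher and 6 lower (median 1.65), but the list holds Lcn2, Steap4, C3, Cxcl10, Iigp1 and Ptgs2, which other lists count too. The intermediate filament genes that mark reactive astrocytes in tissue were lower, Gfap at -2.12 and Vim at -1.13 in the authors' deposited table. Of 32 homeostatic channels and markers 17 were lower and none higher, with a median of -1.10. Slc39a12, a zinc transporter, was at -4.75, Kcnj10 at -3.43, the endothelin receptor Ednrb at -3.0, the glycolytic Aldoc at -2.59 and the sodium pump subunit Atp1b2 at -2.39 in the authors' deposited table. Fabp7, a lipid-binding protein of immature astrocytes, had the highest value of the list, 0.92 in the authors' deposited table. Of 15 genes of glutamate and GABA handling 2 were higher and 4 lower, with a median of -0.41. The authors' deposited table has the transporter genes Slc1a2 at 1.83 and Slc1a3 at 0.60, the glutamine synthetase gene Glul at 0.35 and the glutamine transporter Slc38a3 at -3.83. Of 22 astrocyte identity transcription factors 3 were lower, Rfx4 (-2.00), Id4 (-1.66) and Sox9 (-1.01), and 1 was higher, Dbx2 (1.78), in the authors' deposited table. These shares, 13.6% lower and 4.55% higher, stand beside 8.71% and 8.13% over all genes.

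Most measured mitotic genes were lower, while most replication genes lay between the folds. Of 58 kinetochore, spindle and mitotic kinase genes 44 were lower and none higher (median -1.40, quartiles -1.75 and -1.01). Cenpf (-2.51) and Nuf2 (-2.40) of the kinetochore, the checkpoint kinase Bub1 (-2.33), Mki67 (-2.27), the furrow protein Anln (-2.24) and the spindle motor Kif11 (-2.04) were lowest in the authors' deposited table. Of 48 replication genes 15 were lower and none higher (median -0.40), with the polymerase Pole at -1.72, the ligase Lig1 at -1.42 and the helicase component Cdc45 at -1.40 in the authors' deposited table. The authors' set of 34 replication genes had 12 lower and none higher; the authors' deposited table gives it a p-value of 0.0001 with a minus sign, read as lower. The list of cyclins, inhibitors and E2F factors (26 measured genes, median 0.13) also holds Myc and Mdm2, which belong to none of these classes. Its higher genes numbered 4: Myc (1.91), Cdkn2b (1.42), Cdkn1a (1.24) and Mdm2 (1.09) in the authors' deposited table. Its lower genes also numbered 4: Cdkn2c (-1.58), E2f7 (-1.85), E2f8 (-2.15) and Cdkn1c (-3.73) in the authors' deposited table. No cyclin of this list was called in either direction.

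Matrix genes had called members in both directions, while contractile genes were more often lower than higher. Over all genes the shares were 8.13% higher and 8.71% lower. Collagen chains had 10% and 30%, and proteoglycans, tenascins and thrombospondins 20% and 37.1%. The contractile list had 6.45% higher and 32.3% lower, and ion channels 12% and 25.3%. Of 30 collagen chains 9 were lower and 3, Col23a1 (4.61), Col18a1 (2.12) and Col5a1 (1.14), were higher in the authors' deposited table. Of 35 proteoglycans, tenascins and thrombospondins 13 were lower, with Omd at -4.53, Fbln5 at -3.90 and Postn at -3.27, and 7 higher, with decorin, Dcn, at 5.08, the hyaluronan synthase Has2 at 4.29 and lumican, Lum, at 3.13 in the authors' deposited table. These counts include Fbln5, Postn and Has2, which were listed with these genes but belong to none of the named classes. Metalloproteinases were led by the gelatinase Mmp9 (7.14) and stromelysin Mmp3 (4.64), and their inhibitors parted, Timp1 at 2.86 and Timp3 at -2.04, in the authors' deposited table. Of 31 contractile genes 10 were lower and 2 higher (median -0.71). Smooth muscle actin Acta2 was at -3.16, leiomodin Lmod1 at -3.31, Tagln at -2.69 and the myosin light chain Myl9 at -2.69 in the authors' deposited table. Of 44 growth factors 8 were higher and 10 lower (median 0.02). Of 46 Wnt pathway genes 6 were higher and 9 lower (median -0.21). Of 39 TGF-beta, BMP and Hedgehog genes 7 were higher and 6 lower (median -0.05). Most genes of each list lay between the folds. Ligands with large values included Wnt10a (7.45), Wnt6 (6.28), Hgf (4.64) and Bmp2 (3.07), and Bmp7 (-2.70), Bmp6 (-2.43) and Igf2 (-2.01), in the authors' deposited table. Of 75 ion channel genes 19 were lower and 9 higher, from Kcnj12 at -4.60 to Kcnf1 at 6.21 in the authors' deposited table.

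Genes of the translation and energy machinery shifted little. Across 7 lists of ribosomal proteins, mitochondrial ribosomal proteins, translation factors, tRNA synthetases and respiratory chain subunits, 8 of 320 genes were higher and none lower, well under the background of 8.13% and 8.71%. The 82 cytoplasmic ribosomal proteins had a median of 0.37, with Rpl6 (1.10) and Rps10 (1.00) among those past the fold in the authors' deposited table. The authors' set for assembly of the small subunit (16 genes, 3 higher, none lower) has a p-value of 0.0001 and that for oxidative phosphorylation (75 genes, none higher, 2 lower) a p-value of 0.06 in the authors' deposited table. None of the 28 cholesterol synthesis genes passed in either direction, and their values ranged between -0.32 and 0.76. Of 24 genes of the unfolded protein response 3 were higher, Herpud1 (1.06), Ern1 (1.05) and Atf4 (1.03), in the authors' deposited table. Their share was 12.5%, beside 8.13% over all genes.

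Footprint values were set beside the RNA values of the same cultures. Among genes past the fold in footprints or in RNA, the largest gaps were on both sides. List medians of footprints and RNA were close for guanylate-binding proteins (5.28 in footprints and 5.50 in RNA), antiviral effectors (2.20 and 2.34) and mitotic genes (-1.40 and -1.29). Serpina3 inhibitors had a footprint median of 4.56 beside 6.40 in RNA. The 9 mitochondrially encoded mRNAs had 0.05 in footprints beside 0.64 in RNA. Cxcl9 stood at 1.82 in footprints beside 9.04 in RNA, Serpina3f at 7.20 beside 11.03, Ccl20 at 5.82 beside 9.93 and Acod1 at 8.00 beside 11.78 in the authors' deposited table. Conversely, Tmem132e, a membrane protein gene, was at 7.08 in footprints beside 0.56 in RNA, and Filip1 at 4.67 beside 2.28, per the authors' deposited table. Among lower genes, Mip, the lens water channel, was, in the authors' deposited table, at -4.76 in footprints and -9.89 in RNA. For many of these the translation efficiency column does not equal footprint minus RNA: it holds -5.19 for Cxcl9, -3.30 for Ccl20, -2.40 for Acod1, 2.63 for Tmem132e and 3.70 for Mip in the authors' deposited table. Likewise the authors' deposited table gives Nlrp3 10.71 in footprints, 7.19 in RNA and 1.97 in translation efficiency, and Pglyrp3 0.37, 8.64 and -1.29. The translation efficiency column lies within 0.1 of footprint minus RNA in 78.0% of genes, and 186 genes are off by more than 0.5.

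The 24 h and 48 h footprints are compared with the same untreated libraries and are given side by side. At 24 h the list medians were 6.77 for CXC chemokines, 4.41 for immunity-related GTPases and 3.18 for antiviral effectors, and at 48 h 5.58, 3.36 and 2.20. Serpina3 inhibitors had 4.10 at 24 h and 4.56 at 48 h, and NF-kB inhibitors 2.99 and 2.91. Mx1 stood at 3.91 at 24 h and 0.74 at 48 h, Tgtp2 at 6.59 and 3.31, and Cxcl9 at 6.77 and 1.82 in the authors' deposited table. The Wnt inhibitor Dkk1 was at 5.63 at 24 h and 0.23 at 48 h in the authors' deposited table. Genes past the fold at 48 h and not at 24 h included Wfdc17 (0.05 at 24 h and 5.49 at 48 h), Wfdc21 (0.59 and 5.65), Lilrb4a (0.16 and 4.60), the angiotensin receptor Agtr1b (0.28 and 4.46) and bone sialoprotein Ibsp (0.14 and 4.31) in the authors' deposited table. Among lowered genes, Col4a4 was at -3.33 at 24 h and -6.57 at 48 h, and Nppc at -2.27 and -5.67, in the authors' deposited table.

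**Figure D5:**
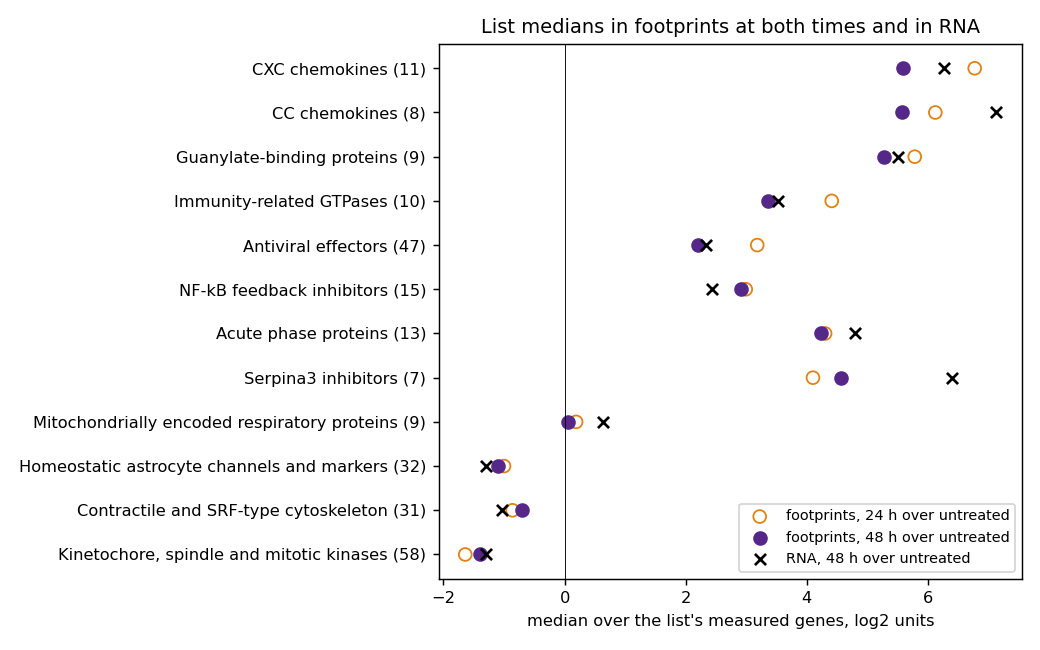
Medians over the measured genes of 12 lists (number after each name), in log2 units, of footprints at 24 h (open circles), footprints at 48 h (filled circles) and RNA at 48 h (crosses), each over untreated cells. The immunity-related GTPases stand at 4.41 at 24 h and 3.36 at 48 h in footprints.

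Markers of 6 other kinds of cell were looked up, and 44 genes of these lists were measured. Of 20 microglia and macrophage markers 4 were measured, and 1 was higher, Adgre1 (F4/80), at 4.62 at 48 h and 0.73 at 24 h in the authors' deposited table. Tmem119 (0.81) and Cd68 (0.26) lay between the folds in the authors' deposited table. Oligodendrocyte, neuron and endothelial lists had 7 measured genes each, with 2, 1 and 1 higher and 1, 2 and 3 lower. Of 13 fibroblast, meningeal and mural markers 4 were higher and 2 lower: Dcn, Lum, Rgs5 (2.26) and Pdgfra (1.76) against Acta2 and Tagln, while Col1a1 (-0.21) and Col1a2 (-0.22) lay near 0 in the authors' deposited table. Of 7 ependymal and cilium genes 5 were lower, including Foxj1 (-1.07) and Ak7 (-2.89) in the authors' deposited table. The part of such cells in the values above was not tested.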

How the data were processed

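Ribosome footprint and RNA libraries of astrocytes were made from divided lysates containing cycloheximide, per the labels' protocols. The submitters' processing notes name TopHat2, featureCounts and the mm10 build, without versions. Normalization, the combination of batches and the calculation of fold changes are not stated in the sources used here. The values the authors deposited are log2 fold changes against untreated cells for 12205 genes, and no value was missing. For 5 gene sets the authors deposited signed scores, read as p-values with a minus sign for a lower set. The label of the RNA molecule reads polyA RNA while the protocol names a total RNA kit.

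From the deposited log2 values, genes past 1 in either direction were counted, over all genes and in 67 lists, with the median of each list. As no library values are in these files, the planned test across batches was not possible and depth and precision are unknown. Identifiers were matched to a table of gene names (12201 of 12205), 19 symbols that a spreadsheet had turned into dates were restored, and 12 genes without a symbol kept their identifier. RefSeq (GRCm38.p6) gave positions and promoter windows, by symbol. The motif search and list medians were tested on simulated data. Python 3.11.15, pandas 2.3.3, numpy 2.4.6 and matplotlib 3.10.9 were used.

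The genes and lists were chosen with earlier results of these data known. After the values had been seen, 4 lists were corrected by annotation: Pyhin1 was taken out of the inflammasome list, and kinases, binding proteins and unrelated genes were taken out of the lists of translation factors, respiratory subunits and small ribosomal proteins. Named genes are the 15 highest and 15 lowest, the 6 highest and 6 lowest of each list (all members in lists of up to 15), and the 10 at each end of footprints at 48 h minus 24 h. The 10 at each end of footprints minus RNA at 48 h were also named, taken only among genes past the fold in footprints or in RNA. Some genes under this rule are not reported here. Others were chosen after their values were seen: Isg15, Ifit1, Cdk1, Top2a, Vcl, the genes of chromosomal runs, the members of the authors' sets and the genes of the closing observations. All 9 motifs, the length of the runs and the folds used to divide the windows were also chosen after values were seen.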

Additional observations from a re-analysis of the deposited data

How the results depend on the processing

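At a log2 threshold of 0.5 in place of 1, 2158 genes were higher and 2192 lower. At a threshold of 2, 458 were higher, 314 were lower, and 14 lists had a median past the threshold, against 22 of 67 at 1. Centring on the median of all genes, leaving out 176 genes past 5 in any column, leaving out 186 genes whose translation efficiency value was off, keeping only genes of the same sign in RNA, and list means in place of medians kept these counts within 1.5 times wherever each applied. Of the 67 list values, 20 moved by 0.25 or more with means in place of medians, 8 with only genes of the same sign in RNA, 4 without the genes whose translation efficiency was off, and 18 without the genes past 5, among them CC chemokines, which turned to -0.06 because 6 of its 8 genes were left out. No paired analysis was possible because the files hold no values per library, although the labels give all groups batches A, B and C. For the same reason leaving out each batch was not run, and no value here is protected against a single deviating library.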

Other observations

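Genes subject to genomic imprinting, which are expressed from the chromosome of a single parent, were looked up after the low values of H19 and Mest were seen. Of 18 looked up, 17 were measured, and 10 were lower, 1 higher and 6 between the folds, with a median footprint value of -1.08 at 48 h. Over all genes, 8.71% were lower and 8.13% higher. H19 and Mest, which prompted the lookup, are part of these counts and of the median, so the numbers describe the chosen genes only. In the authors' deposited table the lowest were Mest (-4.43), H19 (-4.37), the cell cycle inhibitor Cdkn1c (-3.73), Meg3 (-3.11), Dlk1 (-2.74), Peg10 (-2.34), Igf2 (-2.01) and Peg3 (-1.83). Grb10 stood at -1.08 and Rian at -1.0, and Impact, a regulator of translation, at 1.31 in the authors' deposited table. Gnas (0.02), Plagl1 (0.16), Igf2r (0.21), Ndn (-0.25), Snrpn (-0.36) and Sgce (-0.38) lay near 0 in the same table, the authors' deposited table. Begain, Dlk1, Meg3 and Rian are consecutive measured genes on chromosome 12 and made up a downward run.

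Genes that RefSeq annotates as long noncoding RNAs also had footprint values. Of 138 such genes 11 (7.97%) were higher and 15 (10.9%) lower at 48 h, near the shares over all genes of 8.13% and 8.71%. After Gm14275 the highest in the authors' deposited table were Gm16685 (6.84), AW112010 (5.53), Gm15987 (4.25), 1700003M07Rik (3.33) and Gm13293 (3.29). Beside H19 and Meg3, the lowest included 1500009C09Rik (-2.71), and Sox2ot stood at -1.33, in the authors' deposited table. RNA fragments that are protected by other means than a ribosome can be counted as footprints, and read lengths or frames were not analysed here.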
